A study of Sus scrofa with 36 samples.

Results

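The genes described here are those of the circadian clock in pig liver, together with USP2, a ubiquitin protease whose transcript follows the clock in rodent tissues. The list held 10 genes: USP2, PER1, PER2, CIART, NR1D1, ARNTL, CRY1, BHLHE41, DBP and TEF. Their probes were found by gene symbol, transcript accession or description, or, for CIART probes A_72_P475150 and A_72_P405603, by the gene number that the array gives as a name, and a probe was kept where its flag for a signal well above background was set on 6 or more arrays. Members were thus selected on detection, and USP2 was also chosen by its known fall in heat stress. This gave 18 probes for 9 genes, of which 16 probes of 8 genes were kept, out of 44796 kept probes among 60305 on the array.

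Liver RNA came from 36 growing castrated male pigs, hybridised to 1 single-colour array each. The pigs were Large White (LW), Creole (CR) or their cross (F1), with 12 of each breed. In each breed 6 pigs were killed at a thermoneutral (TN) ambient temperature of 24 °C and 6 after heat stress (HS). The HS samples carry a temperature label of 30 °C, while the growth protocol gives 32 °C for 5 days. All pigs shared a fixed light cycle and free access to the same feed, but the study reports that feed intake fell in the heated pigs. Each breed came from a few litters, which were split over pens and temperatures, and each pen held a single breed. Pigs of a breed, within a group or across temperatures, could thus be littermates. Breed cannot be told apart from litter or pen here, and neither litter nor pen is tied to a sample by the labels. Intake fell with heat, and the TN pigs were all killed before the temperature was raised. The effects of heat, lower intake, age and day of slaughter therefore cannot be told apart. The hour of the day at which each pig was killed is not given in the sources used here, and the levels of clock genes depend on that hour.

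The clock is a loop of transcription factors that runs in nearly every cell. The activator BMAL1, the product of ARNTL, works with CLOCK to switch on the genes of the repressors PER1, PER2, CRY1, CIART and BHLHE41 and of NR1D1, which in turn represses ARNTL. CRY1 is also repressed by NR1D1. DBP and TEF are related activators that carry the rhythm to metabolic genes, and in liver the loop times bile acid, glucose and lipid metabolism.

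Depth did not separate the arrays strongly: between 39644 and 44025 non-control spots per array were well above background, and the 5 slides each carried equal numbers of TN and HS pigs. The number of pigs limits the precision. All 6 hepatocyte markers checked were well above background on 36 arrays, ALB among them. No tested marker of the other cell types passed between HS and TN. STAB2, an endothelial marker, was well above background on 4 arrays, under the limit of 6, and was not tested. ADIPOQ was well above background on 7. In this bulk tissue, fewer cells of a type and less RNA per cell cannot be told apart.

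Each probe is an oligonucleotide of 60 bases, and the probes shown are the ones on which the level of a gene or the comparison of probes of a gene rests. The files give no genome position for a probe. The following were the probes of USP2, NR1D1 and ARNTL and a pair of CIART probes without a long shared stretch, 5′ to 3′.
USP2, probe O14750: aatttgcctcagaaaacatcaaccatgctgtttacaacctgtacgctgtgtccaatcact
NR1D1, probe O11226: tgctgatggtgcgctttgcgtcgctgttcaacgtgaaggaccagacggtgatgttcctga
ARNTL, probe A_72_P481317: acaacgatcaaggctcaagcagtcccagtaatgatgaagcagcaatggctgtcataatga
CIART, probe A_72_P475150: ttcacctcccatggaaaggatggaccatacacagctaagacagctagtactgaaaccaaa
CIART, probe A_72_P405603: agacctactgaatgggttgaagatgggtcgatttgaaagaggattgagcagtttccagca
The longest stretch these CIART probes shared was 7 bases, so neither repeats the sequence of the other. CIART probes A_72_P399928 and A_72_P510865 shared 56 of their 60 bases and are not independent readings. The only PER2 probe, O9329, ended in an alternation of C and T, shown in capitals in its last 30 bases.
PER2, end of probe O9329: ccatcaaccagcctTCTCTCTCTCTCTCTC
An alternation of at least 16 bases occurred in 2 of the 60305 probes on the array, the PER2 probe included.

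USP2 was the member whose level differed most between the temperatures. The gene lies on chromosome 9, from 46563469 to 46590392, in Sscrofa11.1. All signals here are log2 values after quantile normalization of the arrays. In LW pigs USP2 ranged from 8.53 to 9.999 with a median of 9.47 in TN, and from 8.22 to 9.83 with a median of 8.64 in HS. In CR pigs it ranged from 8.91 to 10.14 with a median of 9.53 in TN, and from 8.07 to 8.93 with a median of 8.41 in HS. In F1 pigs it ranged from 9.43 to 11.13 with a median of 10.08 in TN, and from 8.08 to 9.32 with a median of 8.77 in HS. The groups overlapped in LW, touched in CR through a single TN pig, and did not overlap in F1. USP2 was known to fall in HS when the list was drawn up, so this contrast is a description and carries no test. Its mean was 0.96 ± 0.17 (SE) lower in HS on the log2 scale, or 1.95-fold, and 17 of 18 HS pigs lay below the TN mean of their breed.

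Breed by breed, the difference in USP2 was -0.53 (LW), -1.03 (CR) and -1.32 (F1), each with an SE of 0.28 on the log2 scale. These 3 values were not shown to differ, since the test of breed by temperature gave an adjusted p of 0.995 (limma). Between breeds, USP2 was 0.32 ± 0.20 higher in F1 than in LW (adjusted p = 0.293) and 0.45 ± 0.20 higher in F1 than in CR (adjusted p = 0.335). CR and LW differed by -0.13 ± 0.20 (adjusted p = 0.687). In the order of group means, CR HS, F1 HS, LW HS, LW TN, CR TN and F1 TN, only 2 steps between neighbours exceeded the spread within groups of 0.51 (SD).

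**Figure D1:**
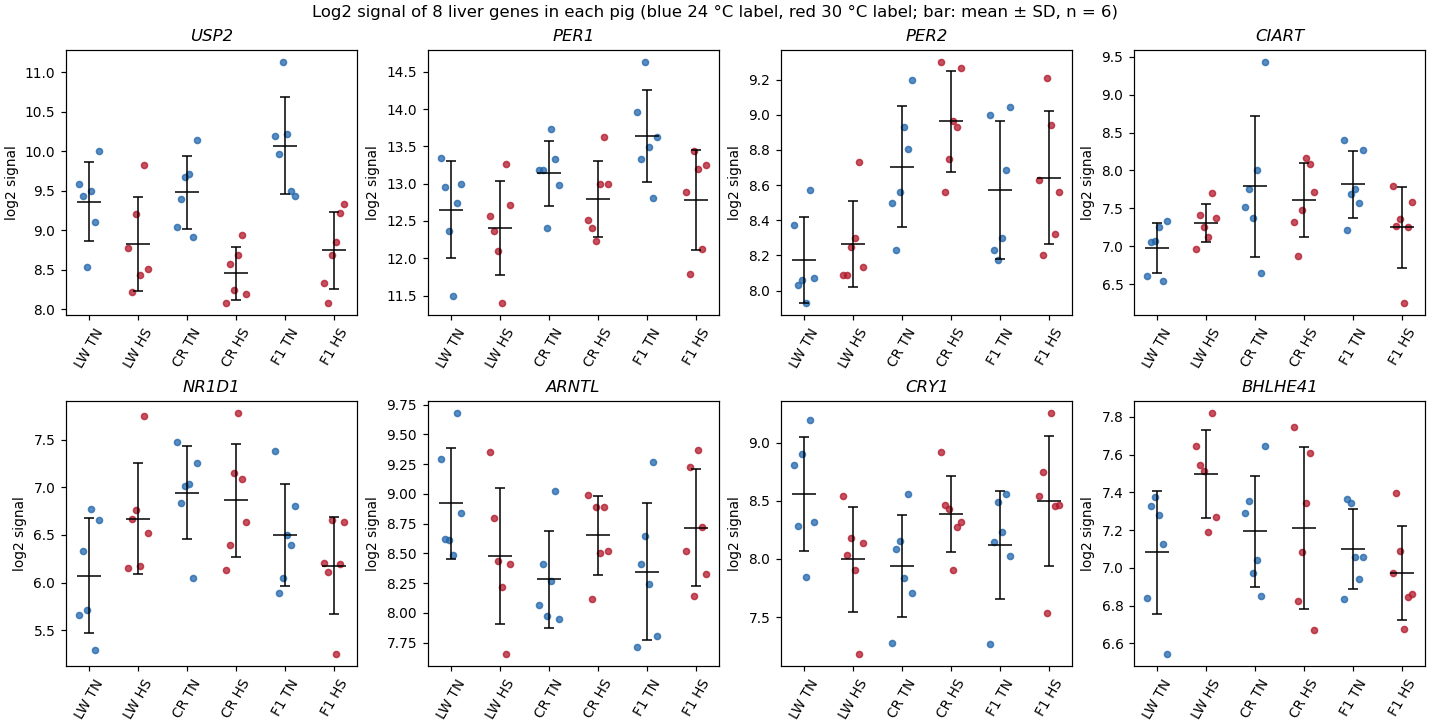
Log2 signal of the representative probe of each gene (vertical axis, a separate scale in each panel) in every pig of the 6 groups (horizontal axis), with TN pigs in blue, HS pigs in red and the mean ± SD of 6 pigs in black. The HS pigs of USP2 lie mostly below the TN pigs of their breed, without overlap in F1, whereas the TN and HS pigs of the 7 other genes overlap in every breed.

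Apart from USP2, none of the 15 kept member probes passed the adjusted threshold of 0.05 between HS and TN in limma, where 0.857% of all kept probes did. At an unadjusted p under 0.05 the count was 1 of 15, the probe of PER1, beside 5860 of all 44796 kept probes. PER1 encodes a repressor of the clock that also responds quickly to hormones. In TN it ranged from 11.49 to 14.63 with a median of 13.19 over 18 pigs, and in HS from 11.40 to 13.62 with a median of 12.64. The ranges overlapped over most of their length. PER1 was 0.48 ± 0.19 lower in HS (adjusted p = 0.218), with 15 of 18 HS pigs below the TN mean of their breed. The differences within breeds were -0.25 for LW, -0.34 for CR and -0.86 for F1, each ± 0.32.

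The remaining probes differed by little between the temperatures as averaged over breeds. PER2 was at 0.14 ± 0.10 in the difference of HS minus TN, NR1D1 at 0.06 ± 0.18, and the 3 ARNTL probes lay between 0.10 and 0.21. The 2 CRY1 probes were at 0.09 and 0.10, the 5 CIART probes between -0.14 and 0.13, and the 2 BHLHE41 probes at 0.04 and 0.10. The lowest adjusted p among these was 0.398, for ARNTL probe A_72_P044041. The median difference of the 15 probes was 0.09, beside 0.00 over all kept probes.

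Within breeds, the activator ARNTL and the repressor CRY1 took one sign in LW and the other in CR and F1. ARNTL lies on chromosome 2, from 45895637 to 46025174. In LW it ranged from 8.49 to 9.68 with a median of 8.73 in TN, and from 7.65 to 9.35 with a median of 8.43 in HS. In CR it ranged from 7.95 to 9.02 with a median of 8.17 in TN, and from 8.12 to 8.99 with a median of 8.70 in HS. In F1 it ranged from 7.71 to 9.27 with a median of 8.32 in TN, and from 8.14 to 9.37 with a median of 8.62 in HS. TN and HS pigs overlapped in every breed.

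The difference of HS minus TN for this ARNTL probe was -0.44 (LW), 0.37 (CR) and 0.37 (F1), each with an SE of 0.26. The other 2 ARNTL probes and both CRY1 probes had the same signs. CRY1, on chromosome 5 from 13275265 to 13429566, differed by -0.56 (LW), 0.45 (CR) and 0.38 (F1) with an SE of 0.25. NR1D1 and 4 of 5 CIART probes ran the other way, above 0 in LW and below 0 in CR and F1. For NR1D1, on chromosome 12 from 22263549 to 22274131, the differences were 0.60, -0.08 and -0.32 with an SE of 0.30. None of these reached the threshold within a breed, where 0% of all kept probes passed among LW, 0% among CR and 0.00893% among F1 pigs, with 0.00446% in each direction.

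The breeds were not shown to differ in these temperature effects. The test of breed by temperature passed for 0 of 16 member probes and for 0% of all kept probes (limma), and the lowest adjusted p among the members was 0.995. The unadjusted p was under 0.05 for 4 of the 16 probes, namely both CRY1 probes (0.0127 and 0.0418), ARNTL probe A_72_P044041 (0.0275) and CIART probe A_72_P510865 (0.0456). Over all kept probes, 1677 of 44796 were under 0.05. The probes of one gene, and the pair of overlapping CIART probes, are not separate lines of evidence. Nor are the signs of ARNTL, CRY1, NR1D1 and CIART, since these genes varied together from pig to pig, as given below.

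**Figure D2:**
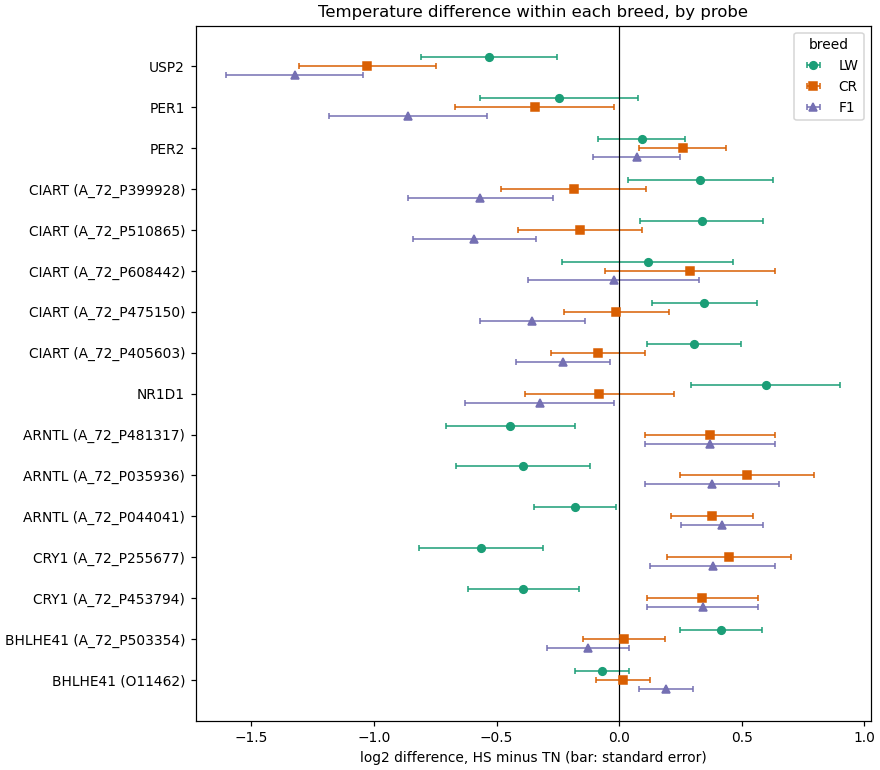
Difference of HS minus TN in log2 signal (horizontal axis) of each kept probe (vertical axis) within LW, CR and F1, with bars for the standard error. The LW points of ARNTL and CRY1 lie below 0 and those of CR and F1 above 0, NR1D1 and 4 of 5 CIART probes lie the other way, and USP2 lies below 0 in all 3 breeds.

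Between breeds, PER2 was higher in CR and in F1 than in LW, 2 of 5 CIART probes were higher in CR than in LW, and PER1 was higher in F1 than in LW. PER2 lies on chromosome 15, from 137793419 to 137837854. It ranged from 7.93 to 8.73 with a median of 8.11 in 12 LW pigs, from 8.23 to 9.30 with a median of 8.87 in CR, and from 8.17 to 9.21 with a median of 8.59 in F1. The 3 breeds overlapped, and all 12 CR pigs lay above the LW mean of their temperature. PER2 was 0.61 ± 0.12 higher in CR than in LW, or 1.53-fold (adjusted p = 0.000405). It was 0.39 ± 0.12 higher in F1 than in LW, or 1.31-fold (adjusted p = 0.0258), with 10 of 12 F1 pigs above the LW mean. F1 minus CR was -0.23 ± 0.12 (adjusted p = 0.480). The other probe with a C and T alternation as long as that of PER2 differed by 0.08 in CR minus LW (adjusted p = 0.777). CIART probes A_72_P510865 and A_72_P399928, given below, carry shorter alternations of 11 and 8 bases. Whether such an alternation affects the signal was not tested.

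CIART encodes a repressor of the BMAL1 and CLOCK pair and lies on chromosome 4, from 98800849 to 98809573. Probe A_72_P510865 ranged from 6.32 to 7.46 with a median of 6.91 in LW, from 6.66 to 8.96 with a median of 7.38 in CR, and from 6.15 to 7.99 with a median of 7.32 in F1. It was 0.59 ± 0.19 higher in CR than in LW (adjusted p = 0.0197), with 10 of 12 CR pigs above the LW mean of their temperature. Probe A_72_P405603 was 0.38 ± 0.14 higher (adjusted p = 0.0370), although it was not well above background in 2 of 6 LW TN pigs. Probes A_72_P399928 and A_72_P475150 lay just outside the threshold, at 0.56 ± 0.22 (adjusted p = 0.0544) and 0.41 ± 0.16 (adjusted p = 0.0541). The fifth probe, A_72_P608442, was at -0.05 ± 0.24. Without CR TN pig 6, whose CIART signal was the highest, the difference for A_72_P405603 was 0.27 (adjusted p = 0.0697). A_72_P510865 was at 0.51 without slide 1 (adjusted p = 0.0663) and at 0.40 without slide 5 (adjusted p = 0.122).

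PER1 lies on chromosome 12, from 53361863 to 53376723. It ranged from 11.40 to 13.34 with a median of 12.64 in LW, from 12.24 to 13.74 with a median of 13.001 in CR, and from 11.79 to 14.63 with a median of 13.29 in F1. It was 0.69 ± 0.23 higher in F1 than in LW, or 1.61-fold (adjusted p = 0.0336), and 10 of 12 F1 pigs lay above the LW mean of their temperature. The CR and LW difference of 0.44 ± 0.23 did not pass (adjusted p = 0.157). The F1 call was lost when any of 9 pigs was left out, with adjusted p up to 0.0700, and without slide 2, 3 or 4, where the difference was as low as 0.53 (adjusted p = 0.206). It was also lost with the processed signal (0.63, adjusted p = 0.0527) and with the authors' log2 table (0.56, adjusted p = 0.0602). The F1 call of PER2 was lost when any of 3 pigs was left out, with adjusted p up to 0.0568, and without slide 2, 3 or 5, with adjusted p up to 0.171.

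The share of member probes called was below that of all kept probes in both comparisons with LW. In CR minus LW, 3 of 16 member probes were called, all higher in CR, where 26.5% of all kept probes were called, 13.6% higher and 12.9% lower. In F1 minus LW, 2 of 16 were called, both higher in F1, where 18.4% of all kept probes were called, 9.13% higher and 9.23% lower. In F1 minus CR no member was called, where 1.5% of all kept probes were, and 2 of the 16 had an unadjusted p under 0.05, beside 5599 of all 44796 kept probes. Both comparisons with LW share the LW pigs. The tests between breeds take the pigs of a breed as independent, although they may be littermates. The median difference of the 16 probes was -0.03 in CR minus LW and 0.02 in F1 minus LW, beside 0.00 and 0.00 over all kept probes.

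The other members gave no call between breeds. NR1D1 was higher in CR than in LW by 0.53 ± 0.22 (adjusted p = 0.0748) and lower in F1 than in CR by a difference of -0.56 ± 0.22 (adjusted p = 0.242). The 3 ARNTL probes lay between -0.23 and -0.01 in CR minus LW, and the CRY1 probes at -0.12 and -0.13. BHLHE41, a repressor of the same feedback loop, lies on chromosome 5, from 47687662 to 47692761. Its probe A_72_P503354 was at -0.25 ± 0.12 in F1 minus LW (adjusted p = 0.154), while its probe O11462 was at 0.01 ± 0.08.

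**Figure D3:**
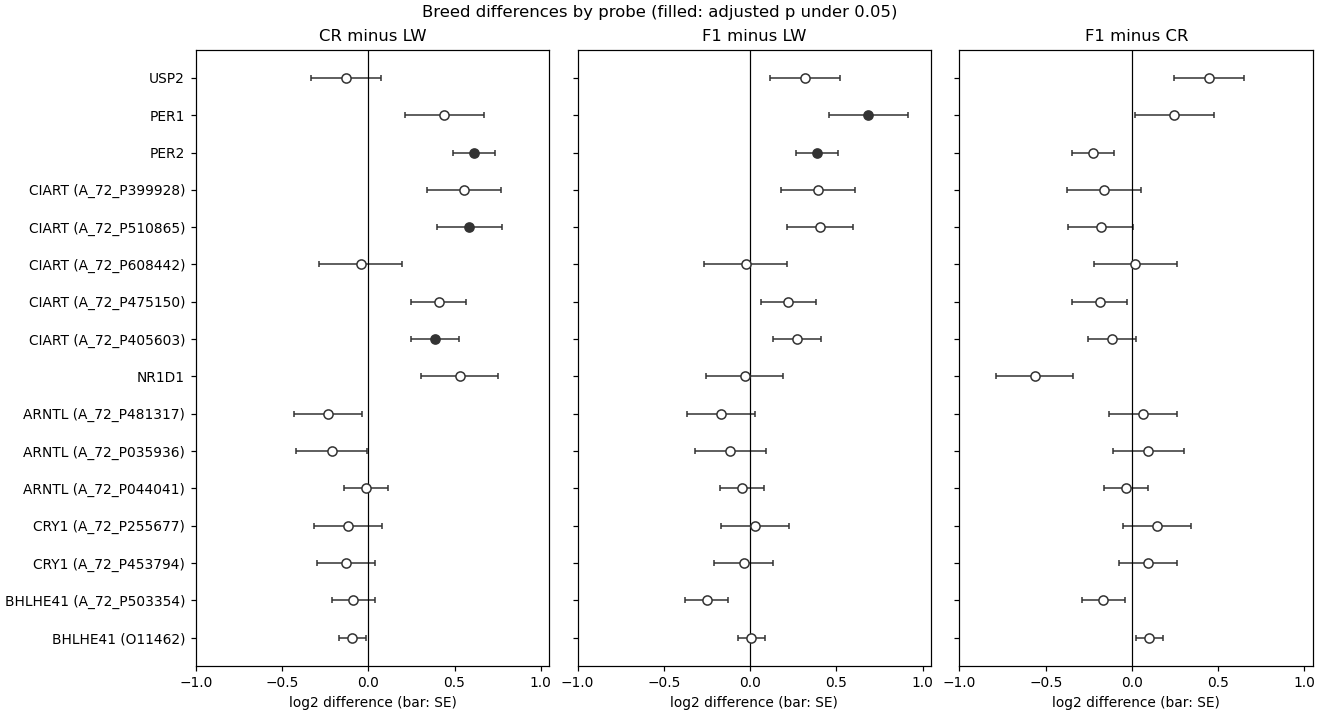
Difference in log2 signal between breeds (horizontal axis) for each kept probe (vertical axis), in 3 panels, with bars for the standard error and filled points for an adjusted p under 0.05. Filled points are PER2 and 2 CIART probes in CR minus LW and PER1 and PER2 in F1 minus LW, all to the right of 0, and there is none in F1 minus CR.

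Among pigs of one group, the representative probes of the 8 members varied more than most probes. The residual SD within the 6 groups was 0.59 for PER1, 0.55 for NR1D1, 0.54 for CIART, 0.51 for USP2, 0.48 for ARNTL and 0.46 for CRY1, beside a median of 0.19 over all kept probes. These 6 genes lay between the percentiles 95.7 and 98.0 of all kept probes. PER2, at 0.32, lay at percentile 86.7, and BHLHE41, at 0.30, at percentile 83.8, whereas the other BHLHE41 probe, at 0.19, lay at percentile 49.9. These percentiles are a description. On the scanner's processed signal they ranged from 62.7 to 97.9 over the 8 genes.

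Part of that variation was shared, among ARNTL, CRY1, NR1D1 and CIART. With the 6 group means removed, each of 28 pairs of the 8 representative probes was tested over 36 pigs by a two-sided permutation within groups, and p-values were adjusted over the 28 pairs. A p of 1e-05 is the smallest these permutations can give. They treat the pigs of a group as exchangeable, although pigs may share litter, pen, slaughter day or hour, which were not modelled. In all, 6 pairs passed, and they were the 6 pairs among ARNTL, CRY1, NR1D1 and CIART. ARNTL rose and fell with CRY1 from pig to pig, NR1D1 with CIART, and each of the first pair ran against each of the second.

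CRY1 and NR1D1, the repressor and its own repressor, had a Pearson r of -0.86 (permutation p = 1e-05, adjusted p = 0.00014) and a Spearman rho of -0.83 (permutation p = 1e-05, adjusted p = 0.000187). The r was -0.90 in TN and -0.82 in HS, and by breed it was -0.91 (LW), -0.88 (CR) and -0.82 (F1). ARNTL and CRY1 had an r of 0.78 (permutation p = 1e-05, adjusted p = 0.00014) and a rho of 0.73 (permutation p = 2e-05, adjusted p = 0.000187). NR1D1 and CIART had an r of 0.70 (permutation p = 2e-05, adjusted p = 0.000187) and a rho of 0.77 (permutation p = 2e-05, adjusted p = 0.000187). The pigs that lay low in CRY1 lay high in NR1D1 in both temperatures and all 3 breeds.

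ARNTL and NR1D1 had an r of -0.66 (permutation p = 0.00011, adjusted p = 0.00077) and a rho of -0.65 (permutation p = 0.00011, adjusted p = 0.000616). CRY1 and CIART had an r of -0.57 (permutation p = 0.00063, adjusted p = 0.00353) and a rho of -0.70 (permutation p = 3e-05, adjusted p = 0.00021). ARNTL and CIART had an r of -0.51 (permutation p = 0.00099, adjusted p = 0.00462) and a rho of -0.55 (permutation p = 0.0009, adjusted p = 0.0042). Without the 2 pigs farthest from the median of the first gene of each pair, the 6 values were 0.76 for ARNTL with CRY1, -0.68 for ARNTL with NR1D1, -0.51 for ARNTL with CIART, -0.86 for CRY1 with NR1D1, -0.58 for CRY1 with CIART and 0.76 for CIART with NR1D1. With slide means removed as well, the r of CRY1 with NR1D1 was -0.87 and that of ARNTL with CRY1 0.77. The 6 r values kept their sign within each breed and each temperature, where they lay between -0.34 and -0.91 for the opposed pairs and between 0.59 and 0.89 for the others.

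**Figure D4:**
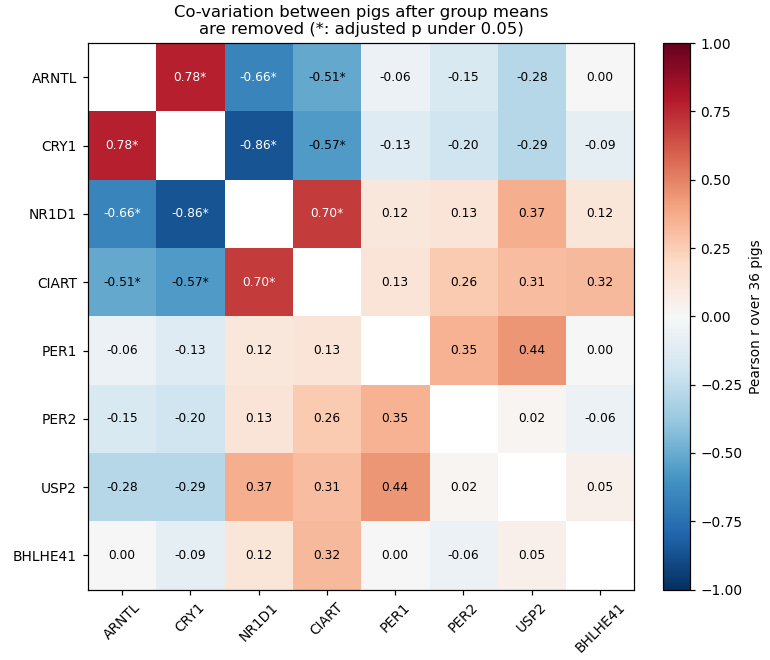
Pearson r (colour and number) between the representative probes of 8 genes over 36 pigs after the 6 group means were removed, with an asterisk where the permutation p adjusted over 28 pairs was under 0.05. The 6 marked pairs are those among ARNTL, CRY1, NR1D1 and CIART, with 2 positive and 4 negative values.

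PER1, PER2, USP2 and BHLHE41 gave no pair that passed. The closest was USP2 with PER1, with an r of 0.44 (permutation p = 0.0148, adjusted p = 0.0592), a rho of 0.42 (permutation p = 0.0197, adjusted p = 0.0790) and an r of 0.29 without the 2 pigs farthest from the median of USP2. With slide means removed as well, 8 pairs passed, the added ones being USP2 with PER1 and CIART with BHLHE41. USP2 with NR1D1 had an r of 0.37 (permutation p = 0.0435, adjusted p = 0.152). PER1 with ARNTL was at -0.06 and PER2 with ARNTL at -0.15.

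**Figure D5:**
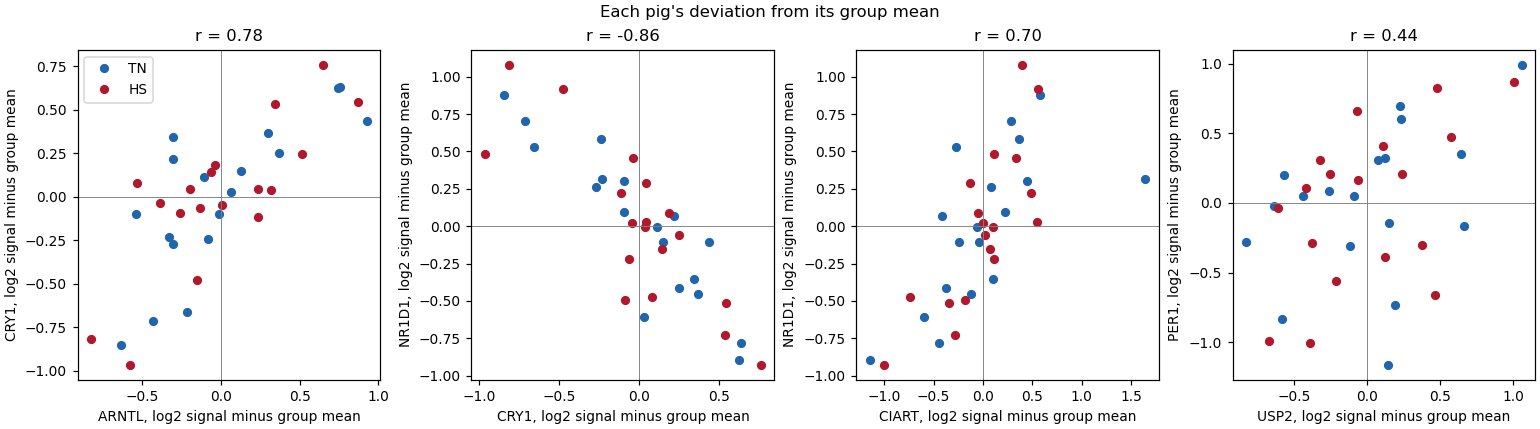
Deviation of each pig's log2 signal from the mean of its group for 4 pairs of genes (both axes), with TN pigs in blue and HS pigs in red and the Pearson r over 36 pigs above each panel. The points of ARNTL with CRY1 and of CIART with NR1D1 rise from left to right, those of CRY1 with NR1D1 fall, and those of USP2 with PER1 are more scattered.

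Probes of a gene agreed in some genes and not in others. After group means were removed, the 3 ARNTL probes correlated at 0.84 to 0.98 and the CRY1 probes at 0.91 over 36 pigs. Of the CIART probes, 4 correlated at 0.91 to 0.98, whereas A_72_P608442 correlated at -0.02 to 0.05 with them. The BHLHE41 probes correlated at 0.02, and A_72_P503354 was assigned by its transcript accession although its description names a plant protein, so what is given for BHLHE41 depends on the probe.

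When ARNTL was set beside the representative probes of the 11421 other named genes over 36 pigs, after group means were removed, CRY1 had the highest r of all at 0.78. It was followed by THRA, a thyroid hormone receptor gene, at 0.74, FAM165A at 0.69, CDC14B at 0.69 and BORCS8 at 0.66. The lowest r was that of NR1D2, the paralogue of NR1D1, at -0.75, and NR1D1 itself stood at place 12 from the bottom. DIO1, which encodes a liver deiodinase that activates thyroid hormone, stood at place 3 from the bottom with an r of -0.74. In Sscrofa11.1 the annotated span of THRA, from 22270506 to 22296684 on chromosome 12, shares 3626 bases with that of NR1D1, and the files do not say where their probes lie. These values are a description, since the pigs share slides, litters and slaughter days.

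For USP2 the closest genes were ASPDH with an r of 0.72, C7ORF43 with 0.71, SUSD6 with 0.69, ADIPOR2 with 0.67 and FAM104A with 0.66. Among the members, PER1 stood at place 238 of 11421, NR1D1 at 602 and CIART at 1053, while ARNTL and CRY1 stood at 10265 and 10306. No clock gene of the list was among the 5 genes most like USP2.

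Of 19 further clock genes, 17 had a probe on the array and 14 genes with 26 probes were kept. ARNTL2 and CSNK1D had no probe under these names, and CLOCK, FBXL21 and FBXW11 had no kept probe. None of the 26 probes was called in HS minus TN, CR minus LW, F1 minus LW or F1 minus CR (limma), where 0.857%, 26.5%, 18.4% and 1.5% of all kept probes were called. The unadjusted p was under 0.05 for 3, 3, 0 and 0 of the 26, beside 5860, 16829, 14245 and 5599 of all 44796 kept probes. In HS minus TN they ran from -0.25 for NFIL3, a repressor that competes with DBP and TEF, to 0.20 for BTRC, a ubiquitin ligase subunit that marks PER proteins for breakdown. In CR minus LW they ran from -0.51 for NFIL3 to 0.12 for BTRC. In F1 minus LW the highest difference was 0.13, for NFIL3 probe A_72_P314698, a dim probe with a mean of 5.72 in LW. The brighter NFIL3 probes A_72_P487453 and O10462 were at -0.06 and -0.20 there. In F1 minus CR they ran from -0.13 for BHLHE40 to 0.42 for NFIL3 probe A_72_P487453. The median difference was 0.03 in HS minus TN and -0.02 in CR minus LW.

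Among pigs of one group, NR1D2 followed NR1D1 with an r of 0.82 and CIART with 0.71, and ran against ARNTL at -0.75 and CRY1 at -0.74. NFIL3 was at 0.47 with CRY1 and -0.65 with NR1D1. HLF, which belongs to the family of DBP and TEF, was at 0.49 with CIART and -0.43 with ARNTL. These are descriptions over 36 pigs.

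Of 12 genes that the liver clock is known to time, 9 were kept with 36 probes. None was called in HS minus TN (limma), where 0.857% of all kept probes were, and 6 of the 36 had an unadjusted p under 0.05, beside 5860 of all 44796 kept probes. CYP7A1, the rate-limiting enzyme of bile acid synthesis, had the lowest difference there, -1.03 ± 0.28 for probe A_72_P078461 (adjusted p = 0.0680) and -0.75 ± 0.24 for probe A_72_P088321 (adjusted p = 0.117). The highest was 0.27 ± 0.27 for NR0B2, a repressor of bile acid synthesis (adjusted p = 0.761).

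In CR minus LW, 4 of the 36 probes were called, all lower in CR, beside the 26.5% of all kept probes. They were both probes of INSIG2, a brake on sterol synthesis, at -0.77 ± 0.16 and -0.22 ± 0.06, 1 of 3 probes of NAMPT, an enzyme of NAD synthesis, at -0.38 ± 0.12, and 1 of 5 probes of KLF10, a transcription factor, at -0.42 ± 0.16. The highest difference was 0.26 ± 0.11 for POR, the reductase of cytochrome P450 enzymes (adjusted p = 0.0750). In F1 minus LW only CYP7A1 probe A_72_P088321 was called, at -0.95 ± 0.29 (adjusted p = 0.0215), where 18.4% of all kept probes were called. The other CYP7A1 probe was at -0.06 ± 0.35 (adjusted p = 0.929), and POR was highest at 0.31 ± 0.12. In F1 minus CR only INSIG2 probe A_72_P140776 was called, at 0.63 ± 0.16 (adjusted p = 0.0337), where 1.5% of all kept probes were called. The other INSIG2 probe was at 0.06 ± 0.06 (adjusted p = 0.782), and CYP7A1 probe A_72_P088321 was lowest at -0.33 ± 0.29. Among pigs of one group, POR was the output gene furthest from 0 with ARNTL, with an r of -0.66, and with NR1D1, with an r of 0.56.

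The members that could not be followed were DBP, TEF and a second probe of NR1D1. DBP, on chromosome 6 from 53986955 to 53993044, had no probe by these names. The probe of TEF was well above background on 3 of 36 arrays, and so was NR1D1 probe A_72_P186261. Their signals ran from 4.80 to 5.78 and from 4.81 to 5.48. The kept probes nearest the limit, NR1D1 probe O11226 and CIART probe A_72_P405603, were well above background on 34 arrays, and the other 14 on all 36. The NR1D1 probe was not above background in 1 LW TN pig and 1 F1 HS pig.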

How the data were processed

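Liver RNA from 36 pigs was hybridised to 1-colour Agilent arrays. The methods call the array a porcine design in one place and a mouse design in another, and the probe annotation is porcine. The deposited intensity values and the flags for spots above background were written by Agilent Feature Extraction 10.10.1.1 per the labels. The authors also deposited a log2 table, quantile normalized over probes expressed in liver, which served as an alternative.

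Here the median signal was log2 transformed, 107 non-uniform spots were left out, and arrays were quantile normalized over 60306 non-control spots. Probes well above background on at least 6 arrays were kept, 44796 in all. limma 3.58.1 (R 4.3.3) was fitted with breed and temperature over all kept probes, and with 6 group means for the interaction and for temperature within breeds. The Benjamini-Hochberg threshold was 0.05. A gene was represented by whichever kept probe was brightest on average. Pair tests used 100000 permutations in Python 3.11.15 with numpy 2.4.6, and 28 pairs remained since DBP and TEF had no kept probe. The scripts were tested on simulated data. Named genes were all members, the most alike genes by r, and the called, highest and lowest of each further list.

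Marker lists for hepatocytes, macrophages, lymphocytes, endothelium, stellate cells, cholangiocytes, erythroid cells, muscle and fat were checked. Members, lists and markers were chosen with earlier results of these data known. A result of the further clock list is not reported here. Pigs are numbered within groups in the order of deposit, as names only. Pen, litter, slaughter day and hour were not modelled. The limma p-values set a difference in means against the spread between pigs, with all pigs taken as independent. Those of the pairs come from permutation within groups. Gene positions are those of RefSeq Sscrofa11.1. Alternatives covered signal column, background correction, filters, slide, spread model, array weights and left-out slides and pigs.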

Additional observations from a re-analysis of the deposited data

Results flagged for a closer look

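In 96 groups of 6 pigs (16 probes), a pig stood apart in 9 by Dixon's criterion, where chance gives about 1 in 20. CR TN pig 5 was the highest of its group at 8.39 for ARNTL probe A_72_P035936, at 6.62 for ARNTL probe A_72_P044041 and at 7.48 for CRY1 probe A_72_P453794. F1 HS pig 4 was the lowest of its group at 6.25 for CIART probe A_72_P399928 and at 5.48 for A_72_P475150. CR TN pig 6 was the highest at 7.14 for CIART probe A_72_P405603. For BHLHE41 probe O11462, F1 TN pig 3 was the lowest at 6.43 and LW HS pig 4 at 6.42. For PER2, LW HS pig 5 was the highest at 8.73. No difference of temperature effects between breeds passed its test.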

How the results depend on the processing

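No member probe other than USP2 was called between HS and TN, and none in the interaction or in F1 minus CR, under any alternative run, with 0 calls each (limma) also without any single pig or slide. USP2 ran between -0.86 and -1.05 in HS minus TN over all alternatives. In CR minus LW, 3 member probes were called, but 5 with the processed signal, 1 without slide 1 and 1 without slide 5, and 2 to 6 when 1 pig was left out. PER2 kept its call there under every alternative, with adjusted p up to 0.0128. CIART probe A_72_P405603 lost its call when any single pig among LW TN pigs 1 to 5, LW HS pig 1, CR TN pigs 4 and 6 and CR HS pigs 4 and 5 was left out (adjusted p 0.0501 to 0.0707), and without any of 4 of the 5 slides. CIART probe A_72_P510865 lost it without slide 1 and without slide 5, while A_72_P399928 and A_72_P475150 passed under some alternatives (adjusted p from 0.0179 and 0.0209). NR1D1 was past the threshold without CR HS pig 1, CR TN pig 5 or LW HS pig 5. In F1 minus LW, 2 probes were called, but 1 with the processed signal and 1 with the authors' table, where PER1 was lost, 0 without slide 2 or 3, 1 without slide 4 or 5, and 0 to 3 when 1 pig was left out. PER1 lost its call there without any single pig among LW TN pigs 3 and 4, LW HS pig 4, F1 TN pigs 1, 3 and 6 and F1 HS pigs 3, 4 and 6, and PER2 without any among F1 TN pigs 1 and 6 and F1 HS pig 3. Of 28 pairs, 6 passed, beside 5 in TN pigs alone and 3 in HS pigs alone, with 18 pigs each. In settings chosen after seeing the data, 5 passed in LW, 1 in CR and 3 in F1 pigs, with 12 pigs each. The cause of the changes between alternatives was not tested. No paired analysis was possible because the labels tie neither litter nor pen to a sample.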
